A study of Mus musculus with 12 samples.

Results

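Matrilins and thrombospondins are oligomeric glycoproteins of the extracellular matrix, and their 9 genes are described here in 3 zones of the embryonic mouse tibia. The genes were chosen by name, as Matn1, Matn2, Matn3, Matn4, Comp, Thbs1, Thbs2, Thbs3 and Thbs4, by a rule that used no measured value. They are 9 of the 18194 genes named on the array. Together they are covered by 14 probe sets that carry only the member's symbol, of 34958 probe sets with 1 symbol. The probe set with the highest mean log2 signal stands for a gene, and the others were used to check it.

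The tibiae came from CD1 mouse embryos at embryonic day 15.5 and were divided by hand according to their morphology, with no treatment and no genetic change in any group. Zone I holds resting and proliferating chondrocytes, zone II prehypertrophic and hypertrophic chondrocytes, and zone III the most mature hypertrophic chondrocytes together with mineralized tissue. RNA of a zone was pooled within a litter and 4 litters were used, which gives 4 Affymetrix Mouse430_2 arrays per zone, lettered A to D, and 12 in all. Each difference is the log2 signal of the later zone less that of the earlier one, with the standard error (SE) of the limma fit, and a difference was called at a Benjamini-Hochberg adjusted p under 0.05 over 22255 probe sets. Where a parenthesis holds a difference and a second value, the second is its adjusted p.

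Matrilins are built from von Willebrand factor A domains, EGF-like repeats and a coiled coil that joins the subunits, and they connect collagen fibrils, proteoglycans and other matrix proteins. Matn1 and Matn3 are the matrilins of cartilage, whereas Matn2 and Matn4 are also made in many other tissues. Thrombospondins bind calcium through a conserved carboxy-terminal region. Thbs1 and Thbs2 form the trimeric subgroup, which inhibits blood vessel growth and acts on cell surface receptors, and Thbs3, Thbs4 and Comp form the pentameric subgroup. Comp, cartilage oligomeric matrix protein, binds collagens and matrilins. Variants of human COMP or MATN3 cause chondrodysplasias in which mutant protein is retained in the endoplasmic reticulum of chondrocytes.

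All arrays had been scaled to 1 mean of 150.0, taken without the highest and the lowest 2% of values, and between 18407 and 21170 probe sets per array reached a signal of 50. The Gapdh control probe sets gave a 3' to 5' signal ratio of 1.98 to 2.28 in zone III, against 1.25 to 1.76 in zones I and II, while the actin controls gave 1.70 to 2.02 in zone III, against 2.09 to 3.23 in zones I and II. The part of RNA quality in the differences was not tested. The summed signal of 6 chondrocyte markers lay between 11202 and 14487 in zone I, 19463 and 21485 in zone II, and 5304 and 7249 in zone III. That of 5 hypertrophic markers lay between 333 and 562, 11442 and 14005, and 11090 and 12869 in the same order of zones.

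All 9 genes and all 14 probe sets reached the minimum mean signal of 50 in at least 1 zone. In zone II relative to zone I, Matn3, Comp and Thbs1 rose, Matn2, Matn4, Thbs2 and Thbs4 fell, and Matn1 and Thbs3 did not pass. These are 7 calls among 9 genes, beside 37.4% of all probe sets called in this comparison, 15.1% higher and 22.2% lower, and per gene 16% higher and 25.4% lower. In zone III relative to zone II, 8 genes fell and Thbs2 rose, beside 49.5% of all probe sets called, 28.5% higher and 20.9% lower, and per gene 31.0% higher and 22.7% lower. In zone III relative to zone I, 8 genes fell, none rose and Thbs2 did not pass, beside 40.0% of all probe sets called, 21.0% higher and 19.0% lower, and per gene 21.7% higher and 21.7% lower. The arrays of the zones did not overlap for 7 of 9 genes in zone II relative to zone I, beside 33.2% of all probe sets, for 8 in zone III relative to zone II, beside 47.8%, and for 7 in zone III relative to zone I, beside 41.7%. The median difference over the 9 genes was -0.31, -1.92 and -1.86 in the 3 comparisons, beside -0.09, 0.09 and -0.01 over all 11847 genes tested. A difference of at least 5-fold was reached by 1, 4 and 3 of the 9 genes, beside 2.37%, 4.85% and 3.75% of all probe sets. With ribosomal protein genes as the common level, 2 genes rose and 5 fell in zone II relative to zone I, and with array medians 4 rose and 3 fell.

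**Figure D1:**
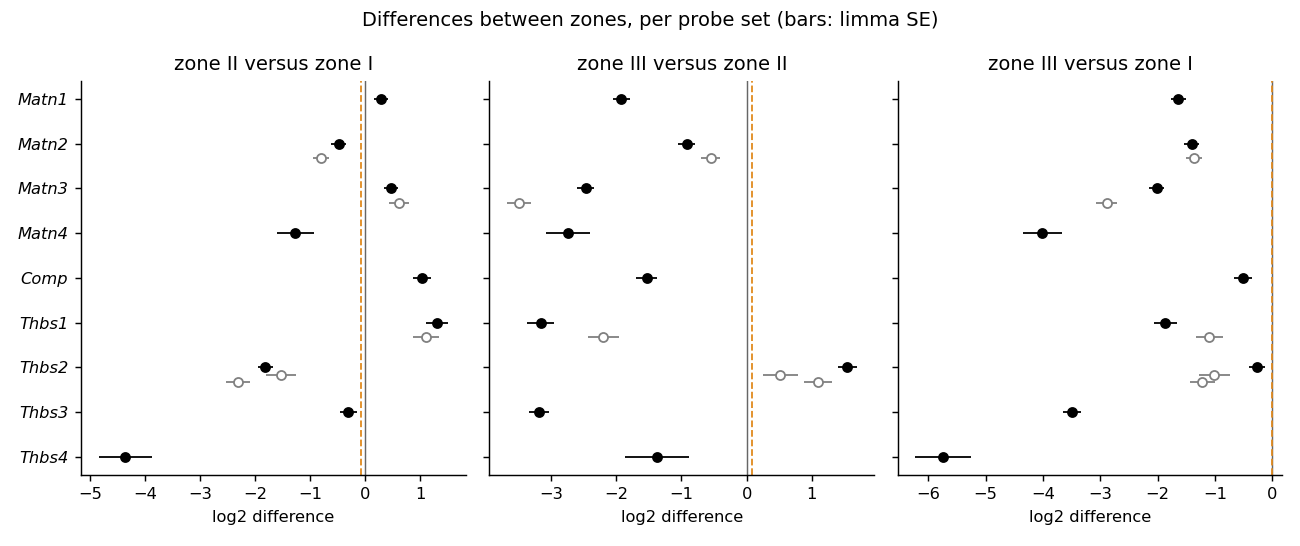
Log2 differences between zones for the 14 probe sets of the 9 genes, with bars for the SE from limma. Filled points are the probe sets that stand for a gene, open points are further probe sets, and the dashed line is the median of all genes tested; in zone III relative to zone II only the Thbs2 points lie above 0.

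Matn1, the matrilin first described in cartilage, was lowest in zone III. It measured 3706, 3551, 4259 and 3459 on arrays A to D of zone I, 4926, 4445, 4520 and 4347 in zone II, and 1313, 944, 1287 and 1303 in zone III. Every zone III array lay below every other array, and the deposited signals of the zone II arrays all lay above those of zone I by a small margin. Matn1 fell 3.79-fold in zone III relative to zone II (log2 difference -1.92 ± 0.13, adjusted p = 1.8e-07) and 3.11-fold relative to zone I (-1.64 ± 0.13, 8.4e-07). Zone II differed from zone I by 0.29 ± 0.13, which did not pass (adjusted p = 0.0976), and within the 3 fluidics runs this difference lay between 0.07 and 0.44. Its direction depended on the scaling, with -0.016 after quantile normalization (adjusted p = 0.939) and -0.058 with ribosomal protein genes as the common level (0.721), against 0.47 with array medians (0.0143).

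Matn3, whose product assembles with that of Matn1, had a similar course with larger differences. The change of the Matn3 to Matn1 ratio, tested below with these probe sets, did not pass in any comparison. The signals of Matn3 were 2443, 2780, 2485 and 3010 in zone I, 4400, 3109, 3718 and 3549 in zone II, and 663, 734, 609 and 645 in zone III. No array of 1 zone overlapped with another zone. Matn3 rose in zone II relative to zone I by 0.46 ± 0.13 (adjusted p = 0.0134), a call that was lost with quantile normalization (0.14, adjusted p = 0.43) and with ribosomal protein genes as the common level (0.11, adjusted p = 0.643). It fell 5.54-fold in zone III relative to zone II (-2.47, adjusted p = 3.1e-08) and 4.04-fold relative to zone I (-2.01, 1.2e-07). Its further probe set gave the same directions with a drop of 11.3-fold in zone III relative to zone II, so that the size of the drop differed between probe sets.

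The promoters of Matn1 and Matn3 are shown because these cartilage genes had the closest courses among the 9 over the 12 arrays. Each sequence runs from 250 bases before to 50 bases after the annotated start (RefSeq, GRCm38.p6). Matn1 lies at chr4:130944135-130944434 and Matn3 at chr12:8947679-8947978, both on the plus strand. Capitals mark matches on either strand to GGGCGG, the GC box, or CCAAT, the CCAAT box, found in 35.7% and 37.4% of 32851 mouse promoters of the same length.
Matn1: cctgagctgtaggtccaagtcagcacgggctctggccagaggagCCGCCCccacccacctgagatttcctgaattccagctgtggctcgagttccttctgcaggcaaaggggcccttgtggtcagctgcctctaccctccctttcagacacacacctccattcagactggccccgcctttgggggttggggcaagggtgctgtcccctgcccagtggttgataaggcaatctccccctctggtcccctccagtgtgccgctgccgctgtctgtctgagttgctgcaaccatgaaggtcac
Matn3: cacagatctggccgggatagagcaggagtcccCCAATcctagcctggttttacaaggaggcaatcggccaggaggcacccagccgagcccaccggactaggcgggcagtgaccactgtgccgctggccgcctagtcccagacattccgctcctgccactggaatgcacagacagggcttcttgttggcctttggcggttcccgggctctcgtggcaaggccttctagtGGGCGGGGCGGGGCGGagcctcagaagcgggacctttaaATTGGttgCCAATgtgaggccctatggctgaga

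Matn1 has 1 GC box and no CCAAT match in this window, and Matn3 has 3 overlapping GC boxes and 3 CCAAT matches. The letters ACAAT, the core bound by Sox factors, were found in 31.0% of all promoters and TATAAA in 13.6%, and neither was found in these windows.

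Matn2, a matrilin of connective tissues, fell stepwise along the zones. Its arrays ranged from 1386 to 1677 in zone I, 899 to 1168 in zone II and 506 to 689 in zone III, without overlap between zones. The differences were -0.49 ± 0.13 in zone II relative to zone I (adjusted p = 0.0111), -0.92 ± 0.13 in zone III relative to zone II (8.8e-05) and -1.41 ± 0.13 in zone III relative to zone I (3.7e-06). Its further probe set was called in the same directions. The first of these calls was lost with array medians as the common level (-0.30, adjusted p = 0.0754) and the second with ribosomal protein genes (-0.41, 0.0641).

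Matn4 had the widest fall of the matrilins. It measured 1334, 2174, 1112 and 756 in zone I, 791, 648, 298 and 471 in zone II, and 104, 81.3, 70.4 and 60.3 in zone III. Zone III lay apart from both other zones, whereas the highest zone II array exceeded the lowest zone I array. Matn4 fell by 1.27 ± 0.34 in zone II relative to zone I (adjusted p = 0.0111), 6.70-fold in zone III relative to zone II (-2.74, 2.8e-05) and 16.2-fold in zone III relative to zone I (-4.01, 1.7e-06). Its SE of 0.34 was the largest among the matrilins.

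**Figure D2:**
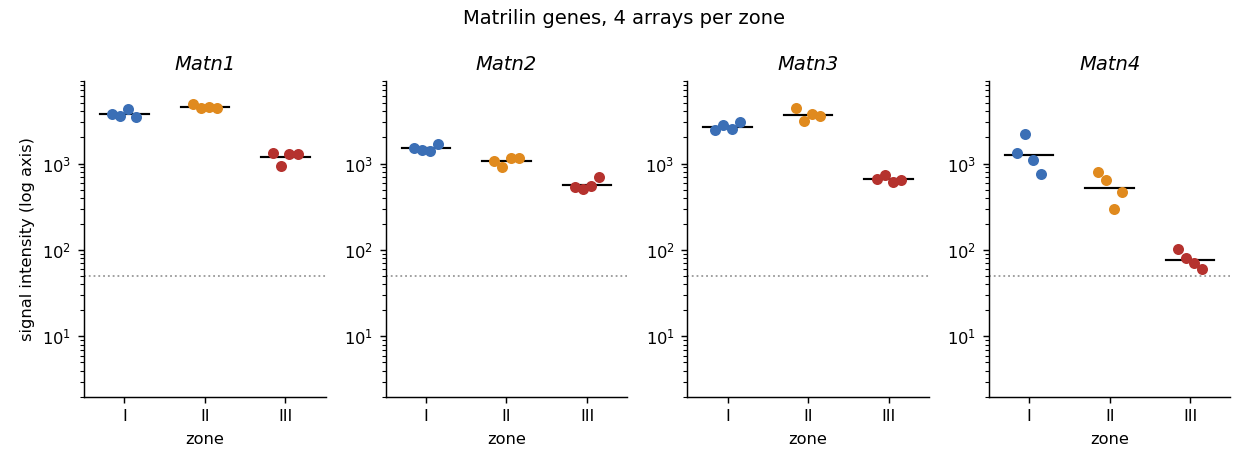
Signal intensity (log axis) of the 4 matrilin genes on 4 arrays in each of zones I, II and III, with points for arrays and lines for the mean of the log2 signals. The dotted line is the minimum of 50; all 4 genes have their lowest arrays in zone III, and Matn4 has the widest spread.

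Comp was highest in zone II. Its signals were 2212, 2860, 2782 and 1770 in zone I, 4895, 4867, 4515 and 4975 in zone II, and 1895, 1382, 1772 and 1637 in zone III. All zone II arrays exceeded all others, and zones I and III overlapped. Comp rose 2.04-fold in zone II relative to zone I (1.03 ± 0.16, adjusted p = 0.00031) and fell 2.90-fold in zone III relative to zone II (-1.53, 6e-06). The fall of 0.51 ± 0.16 in zone III relative to zone I (adjusted p = 0.0216) was weak, ranging from -1.01 to -0.06 within fluidics runs. It was no longer called without array B or C of zone I (adjusted p = 0.0611 and 0.0645), without array B of zone III (0.069), with no filter (0.0642), with quantile normalization (0.0545) or with ribosomal protein genes (0.107).

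Thbs1, an activator of latent TGF-beta and inhibitor of angiogenesis, also peaked in zone II. It measured 161, 259, 192 and 130 in zone I, 493, 381, 423 and 482 in zone II, and 63.2, 40.6, 46.7 and 49.6 in zone III. The 3 zones did not overlap. Thbs1 rose 2.46-fold in zone II relative to zone I (1.30 ± 0.20, adjusted p = 0.00035), fell 8.96-fold in zone III relative to zone II (-3.16, 1.4e-07) and fell 3.64-fold in zone III relative to zone I (-1.86, 1.4e-05). The further probe set gave 1.10, -2.20 and -1.10, all called. In zone III the signal lay at the minimum used, with 3 of 4 arrays below 50, so that the folds against zone III depend on the background of the probe set.

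Thbs2, the relative of Thbs1 that is typical of connective tissue cells, took the opposite course. Its signals were 546, 428, 523 and 420 in zone I, 155, 116, 118 and 157 in zone II, and 397, 374, 431 and 385 in zone III. Every zone II array was below every other array, and zones I and III overlapped. Thbs2 fell 3.52-fold in zone II relative to zone I (-1.81 ± 0.14, adjusted p = 1.3e-06) and rose 2.93-fold in zone III relative to zone II (1.55, 2e-06), the single rise among the 9 genes in that comparison. Zone III differed from zone I by -0.27 ± 0.14, which did not pass (adjusted p = 0.154), but both further probe sets were called lower there, at -1.01 (0.00962) and -1.22 (0.00067). Those probe sets gave 0.52 (adjusted p = 0.13, not called) and 1.10 (0.00103) for zone III relative to zone II.

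Thbs3, a pentameric thrombospondin made in the developing skeleton, fell in zone III and not in zone II at the threshold used. Its arrays measured 590, 844, 779 and 731 in zone I, 572, 463, 638 and 714 in zone II, and 71.0, 56.4, 64.8 and 68.3 in zone III. Zones I and II overlapped, and zone III lay far below both. Thbs3 fell 9.09-fold in zone III relative to zone II (-3.18 ± 0.16, adjusted p = 2.5e-08) and 11.3-fold relative to zone I (-3.49, 1.1e-08). The difference of -0.31 in zone II relative to zone I did not pass (adjusted p = 0.141), and passed only with ribosomal protein genes as the common level (-0.65, 0.0172).

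Thbs4, a thrombospondin of tendon and muscle attachments, was measured above 50 in zone I alone. It gave 473, 289, 236 and 247 in zone I, 41.0, 7.27, 19.4 and 7.84 in zone II, and 4.65, 3.68, 7.18 and 8.04 in zone III. Zone I lay apart from both other zones, which overlapped with each other. Thbs4 fell 20.4-fold in zone II relative to zone I (-4.35 ± 0.49, adjusted p = 2.7e-05) and 53.2-fold in zone III relative to zone I (-5.73, 1.8e-06), where it ranked as the 23rd and the 5th lowest difference of 11847 genes. These folds and ranks are set against signals below 50 and depend on background, and with 16 added to every signal they were 9.68-fold (-3.28) and 14.4-fold (-3.85), both still called. The further difference of -1.38 ± 0.49 in zone III relative to zone II (adjusted p = 0.0329) lay wholly below 50, ranged from -3.14 to -0.05 within fluidics runs, and was not called with 16 added (-0.58, 0.0865), with no filter (adjusted p = 0.078), with only the 8 arrays of both zones (0.0582), with ribosomal protein genes (-0.87, 0.128), or without array A (-0.88, 0.0788) or C (-1.24, 0.0793) of zone II or A (-1.29, 0.0752) or B (-1.18, 0.0913) of zone III.

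**Figure D3:**
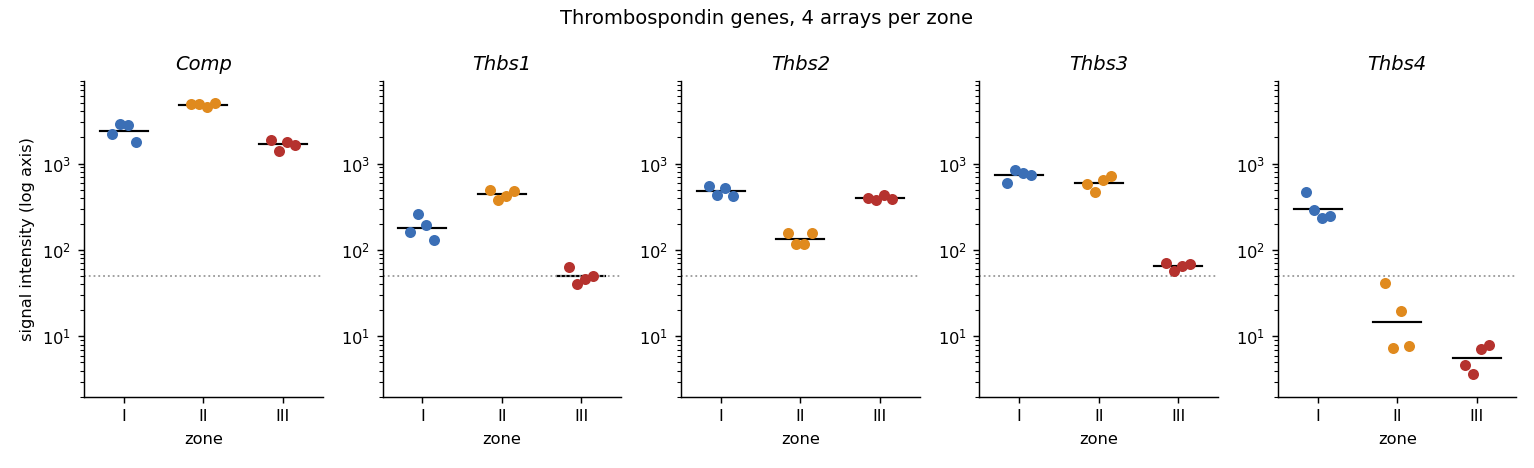
Signal intensity (log axis) of Comp and the 4 other thrombospondin genes on 4 arrays in each of zones I, II and III, with points for arrays and lines for the mean of the log2 signals. The dotted line is the minimum of 50; Comp and Thbs1 are highest in zone II, where Thbs2 is lowest, and Thbs4 lies below 50 in zones II and III.

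The promoters of Thbs2, Thbs3 and Thbs4 are shown because these thrombospondins had 3 different courses along the zones. Capitals mark the same motifs as above and also TATAAA, the TATA box, and ACAAAG, a longer core bound by HMG box factors that was found in 18.7% of all promoters. Thbs2 lies at chr17:14694213-14694512 on the minus strand, Thbs3 at chr3:89214930-89215229 on the plus strand and Thbs4 at chr13:92794769-92795068 on the minus strand (RefSeq, GRCm38.p6), each read in the direction of the gene.
Thbs2: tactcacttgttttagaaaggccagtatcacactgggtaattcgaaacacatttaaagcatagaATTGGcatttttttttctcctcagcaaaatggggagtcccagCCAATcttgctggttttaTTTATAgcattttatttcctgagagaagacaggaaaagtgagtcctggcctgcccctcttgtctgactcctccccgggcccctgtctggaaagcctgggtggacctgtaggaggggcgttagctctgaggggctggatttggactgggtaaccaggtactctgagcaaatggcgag
Thbs3: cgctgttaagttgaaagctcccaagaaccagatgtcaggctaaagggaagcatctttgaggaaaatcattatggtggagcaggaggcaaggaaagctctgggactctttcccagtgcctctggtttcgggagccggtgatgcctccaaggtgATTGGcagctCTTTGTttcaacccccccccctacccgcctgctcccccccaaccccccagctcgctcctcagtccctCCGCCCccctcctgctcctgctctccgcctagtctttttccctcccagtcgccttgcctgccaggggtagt
Thbs4: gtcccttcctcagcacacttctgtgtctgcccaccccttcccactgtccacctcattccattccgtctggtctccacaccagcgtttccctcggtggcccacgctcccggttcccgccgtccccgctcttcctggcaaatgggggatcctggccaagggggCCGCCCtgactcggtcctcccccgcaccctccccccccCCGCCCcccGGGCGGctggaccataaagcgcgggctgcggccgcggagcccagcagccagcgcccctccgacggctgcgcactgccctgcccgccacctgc

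Thbs2 has 2 CCAAT matches and 1 TATAAA match, Thbs3 has 1 match each to the longer HMG core, the CCAAT box and the GC box, and Thbs4 has 3 GC boxes. The GC content was 48.3% for Thbs2, 59.0% for Thbs3 and 72.0% for Thbs4, beside a median of 52.7% over all promoters, and 61.3% for Matn1 and 62.7% for Matn3. Of the 9 members 6 had a promoter entry, and Matn4 had 2 entries.

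Ratios of members on the same array do not depend on a common factor applied to that array. Quantile normalization can change them, and they were not recomputed with it. For 7 pairs in 3 comparisons a two-sided exact permutation test of 4 arrays against 4 was used, whose smallest p is 0.0286. Benjamini-Hochberg adjustment over the 21 tests gave 0.04 for every ratio called here. The Comp to Matn1 ratio rose by 0.74 in zone II relative to zone I, by 0.39 in zone III relative to zone II and by 1.13 in zone III relative to zone I. Thus the Matn1 signal fell more than that of Comp in zone III. The Thbs1 to Thbs2 ratio rose by 3.11 in zone II relative to zone I and fell by 4.71 in zone III relative to zone II and changed by -1.60 in zone III relative to zone I. With the median over a gene's probe sets in place of the strongest, the last of these was -0.55 and was not called.

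The Thbs3 to Comp ratio fell in all 3 comparisons, with changes of -1.33, -1.65 and -2.98. The Thbs4 to Comp ratio fell by 5.38 in zone II relative to zone I, and the change of 0.15 in zone III relative to zone II did not pass (exact permutation p = 0.914). Thbs4 lay below 50 on every array of zones II and III, so that the size of these changes depends on background, and with 16 added to every signal they were -4.30 and 0.95 (exact permutation, adjusted p = 0.04 and 0.0706). Matn4 fell relative to Matn1 in zone II (-1.56) and in zone III (-2.38) when each was set against zone I, and Matn2 fell relative to Matn1 in zone II (-0.78) and rose relative to it in zone III set against zone II (1.00). For Matn3 to Matn1 the changes of 0.17, -0.55 and -0.38 did not pass (exact permutation p = 0.286, 0.0571 and 0.143), although with the median of probe sets the changes in zone III reached -1.06 against zone II and -0.81 against zone I and were called.

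**Figure D4:**
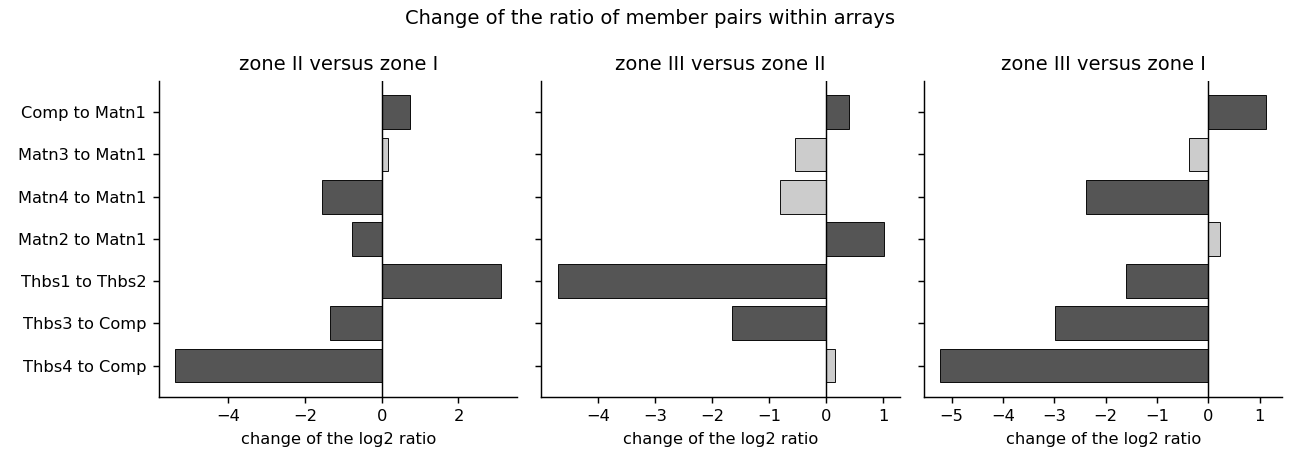
Change of the log2 ratio of 7 pairs of members on the same array, for zone II relative to zone I, zone III relative to zone II, and zone III relative to zone I. Dark bars are changes called after adjustment of the exact permutation test and pale bars are not; the Thbs1 to Thbs2 bar turns over between the first and the second panel.

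In tissue RNA, fewer cells of a type and less RNA per cell cannot be told apart, and markers of other cells moved along with several members. Of 6 tendon and fibrous tissue markers, among them Tnmd, tenomodulin, and Kera, keratocan, all 6 fell in zone II relative to zone I, as Thbs4, Thbs2, Matn4 and Matn2 did. Their summed signal was 4080 to 6156 in zone I, 582 to 1291 in zone II and 1715 to 2023 in zone III. Array A had the highest sum in every zone, and in zones I and II also the highest Thbs4 signal. In zone III its Thbs4 signal of 4.65 lay below those of arrays C and D. Array A of zones I and II was also highest in the endothelial, macrophage, skeletal muscle and erythroid marker sums. The 8 endothelial markers all fell in zone II relative to zone I and all rose in zone III relative to zone II, as Thbs2 did, with sums of 740 to 1278, 303 to 601 and 2642 to 2982 along zones I, II and III. The smooth muscle and pericyte sum was 1544 to 2591, 1106 to 1698 and 2391 to 2576 along the zones. Myh11 lay below 50 in every zone, and the other 5 genes were divided. In zone III relative to zone II, 2 rose, 1 fell and 2 did not pass, with Pdgfrb (4.43) and Cspg4 (-1.10) at the ends. In zone III relative to zone I, 1 rose and 3 fell. All 5 osteoblast markers and all 6 macrophage markers also rose in zone III relative to zone II, with sums of 7908 to 8806 for osteoblasts in zone III, against 1315 to 2244 in zone II, and of 4318 to 5202 for macrophages in zone III, against 611 to 947 in zone II. All 6 chondrocyte markers fell in zone III relative to both other zones, as every member except Thbs2 did. Of these members, Comp and Thbs4 were each weak in 1 of the comparisons, as given above. Skeletal muscle markers summed to 292 to 1423, 219 to 558 and 179 to 394, and megakaryocyte and platelet markers to 546 to 823, 213 to 333 and 561 to 635 along the zones, with Ppbp, Gp9 and Gp6 below 50 in every zone. The part of such cells in the members' differences was not tested.

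Of 12 matrix proteins that bind matrilins or thrombospondins, 2 rose and 4 fell in zone II relative to zone I, beside 16% and 25.4% of all genes. The 2 rises became 6 with array medians, 1 with quantile normalization and 0 with ribosomal protein genes as the common level. Those that fell were the fibril-associated collagen Col14a1 (log2 difference -3.68), the small proteoglycans Bgn (-1.94) and Dcn (-1.66) and the collagen Col12a1 (-1.79), and those that rose were fibronectin Fn1 (0.66) and aggrecan Acan (0.57). In zone III relative to zone II, 6 rose and 5 fell, beside 31.0% and 22.7% of all genes. Col1a1 (2.27), the main bone collagen, and Dcn (1.89) were among the rises. The collagen IX chains Col9a2 (-2.82) and Col9a3 (-2.03) were among the falls. The list median was 0.01, 0.48 and -0.60 in the 3 comparisons.

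Receptors of thrombospondins were mostly higher in zone III, where 8 of the 9 members were lower. Of 10 receptor genes 8 rose and 1 fell in zone III relative to zone II, beside 31.0% and 22.7% of all genes. With array medians as the common level, 5 of the 10 rose. Itgb3, an integrin chain also abundant in osteoclasts, rose 24.3-fold (4.60, adjusted p = 3.5e-08) together with its partner Itgav (1.79), while 6 of 6 osteoclast markers rose in the same comparison and their summed signal was 10239 to 12308 in zone III, against 580 to 1536 in zone II. Lrp1, the endocytic receptor that clears thrombospondins, fell in zone II relative to zone I (-0.98) and rose in zone III relative to zone II (1.64), and Cacna2d1, a calcium channel subunit that binds thrombospondins, took the opposite course (0.65 and -1.47).

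Of 6 proteases that cleave members, Adamts7 stayed below 50. The other 5 all rose in zone III relative to zone II, beside 31.0% of all genes. Among them were Htra1 (2.40) and the aggrecanases Adamts5 (2.38) and Adamts4 (2.19). In zone II relative to zone I, 4 of the 5 fell, beside 25.4% of all genes, with Adamts5 (-2.58) and Htra1 (-2.08) in front. In zone III relative to zone I, 2 rose and 3 did not pass, among them Adamts5 (-0.19) and Htra1 (0.32). Genes of protein folding and glycosylation in the endoplasmic reticulum mostly moved the other way from zone I to zone II and from zone II to zone III. Of these 11 genes 8 rose and 1 fell in zone II relative to zone I, beside 16% and 25.4% of all genes. None rose and 9 fell in zone III relative to zone II, beside 31.0% and 22.7%. Creld2 (log2 differences 1.13 and -1.16) and Manf (0.94 and -1.04), both induced by misfolded matrix proteins, were the largest in both comparisons. The 8 rises became 3 with quantile normalization and 2 with ribosomal protein genes, and the 9 falls became 5 and 2.

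Of 8 other matrix proteins with von Willebrand A domains, Vwa2, Coch and Vwf stayed below 50. In zone II relative to zone I, Vwa1 (-2.54) and the collagen VI chains Col6a2 (-1.44) and Col6a1 (-1.26) fell and none rose. The shares over all genes were 25.4% lower and 16% higher. In zone III relative to zone II, Vit (3.81) and Vwa1 (1.18) rose and none fell, beside 31.0% and 22.7% of all genes. All 4 matrilins fell in that comparison.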

How the data were processed

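Affymetrix Mouse430_2 arrays of 12 RNA pools were analysed from the signal intensity table deposited by the authors, with 1 linear value per probe set and array. All 12 columns were matched to zone and letter through the sample titles. RMA is named in the submitters' processing notes, and the study's methods add GCRMA. The values had been scaled to 1 common mean after removing 2% at each end, which these methods do not do, and the sources used here do not name the algorithm behind them. From the scanner reports deposited by the authors, which hold other settings and text, only the hybridization time was used. Arrays that share this time were taken as 1 fluidics run. There were 3 runs of 4 arrays, each with all 3 zones.

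Genes were named through probe sets with 1 symbol in the platform annotation, and 1 probe set named for both Thbs1 and another gene was left out. Values were log2 transformed without an added constant. A probe set entered the fit if its mean reached 50 in any zone and it was no control, which left 22255 probe sets and 11847 genes. limma 3.58.1 in R 4.3.3 (lmFit, contrasts.fit and eBayes) fitted 3 zones on 12 arrays with 1 shared spread, with Benjamini-Hochberg adjustment of the p-values of each comparison. The fit was tested on simulated data. Ratios were tested by listing every arrangement of the arrays in python 3.11.15 with numpy 2.4.6. Signals are given per array and differences with the SE of the fit, and 4 arrays per zone limit the precision of every value.

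All members were named whatever their values. Of each further list up to 4 genes per direction and comparison could be named, those with the largest difference among those called, and for each member the 3 genes nearest over the 12 arrays. The members and lists were chosen with earlier results of these data known. Alternatives were no filter, a minimum of 100, quantile normalization, array medians or ribosomal protein genes as the common level, 16 added to each signal, robust estimation with a mean-variance trend, a fit of the 8 arrays compared, a block by letter or by fluidics run, the median over probe sets of a gene, and each array left out in turn. Promoter sequences are from RefSeq (GRCm38.p6).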

Additional observations from a re-analysis of the deposited data

Results flagged for a closer look

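Of the 27 groups of 4 arrays formed by 9 genes in 3 zones, 1 held an array apart from the rest. Matn1 measured 944 on array B of zone III, whereas the other 3 arrays of that zone lay between 1287 and 1313. The gap took 0.939 of the range of the group, above Dixon's critical value for 4 arrays. About 5% of such groups are expected to pass by chance. Without an array of any zone the difference of Matn1 lay between -1.97 and -1.81 in zone III relative to zone II and between -1.68 and -1.52 in zone III relative to zone I, and both stayed called.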

How the results depend on the processing

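Of the differences of the 9 genes only that of Matn1 in zone II relative to zone I, which was not called, changed sign under any of the 11 settings, to -0.016 with quantile normalization (limma adjusted p = 0.939) and -0.058 with ribosomal protein genes (0.721), and none did without any of the 12 arrays. Of 297 values under a setting 280 kept direction and call, 2 changed sign, 11 lost the call and 4 gained it, and of 324 values without an array 317 kept it and 7 lost it, for Comp and Thbs4 as given above. Many of these directions could not change. The filters, the trend, the block by letter and the fit of only the arrays compared leave a difference as it was, and only its call can change. The same holds for the median over probe sets where a gene has 1, and without an array of the zone not compared. The counts therefore overstate how stable the directions were. Calls were gained by Matn1 in zone II relative to zone I with array medians (0.47, limma adjusted p = 0.0143) and with a mean-variance trend (0.0427), and by Thbs2 in zone III relative to zone I with the median of its probe sets (-0.93, 0.00033), besides Thbs3 as given above. With the replicate block the counts of members called were 7, 9 and 8, as without it, and the block changed no call. The main fit did not pair arrays by letter. Deviations from the zone mean correlated at -0.13 to 0.26 between arrays of the same letter, and most of these values were positive. Between arrays of different letters they correlated at -0.30 to 0.23, and most values were negative. Whether a letter marks the same litter in every zone was not tested. The block by fluidics run also gave 7, 9 and 8. With the replicate block the exact test of a ratio cannot reach 0.05, and without 1 array only the change itself was read. Every ratio called in full kept its direction without 1 array. With the replicate block the change equals that of the main test, so its direction could not differ. Scaling shifted the median of all probe sets from -0.07, 0.09 and 0.01 in the 3 comparisons to 0.11, -0.15 and -0.05 with array medians and to -0.42, 0.61 and 0.18 with ribosomal protein genes. Probe sets called higher and lower in zone II relative to zone I were then 24.3% and 15.4% with array medians and 4.67% and 40.1% with ribosomal protein genes. The arrays' background limits Thbs4 in zones II and III and Thbs1 in zone III.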

Other observations

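The genes whose course over the 12 arrays came nearest to each member are given as a description, with the root mean square distance of their centred log2 signals. Nearest to Matn1 was Col9a3, a collagen IX chain, at 0.11, followed by Fam162a at 0.16 and Plod2, a collagen lysyl hydroxylase, at 0.18. Nearest to Matn3 was Nucb2 at 0.15, to Matn2 Mindy4 at 0.15 and to Comp Pdss2 and Anxa4, both at 0.18. Matn4 had P4ha3, a collagen prolyl hydroxylase, at 0.38 and Gdf5, a growth factor of developing joints, at 0.44. Nearest to Thbs1 was Plekhb1 at 0.30, to Thbs2 Man2a1, a Golgi mannosidase, at 0.13, and to Thbs3 Pou3f3 at 0.24. Thbs4 had no gene closer than Ecrg4 at 0.71. Such a distance grows with the member's own spread, a standard deviation of 2.54 for Thbs4 against 0.67 for Comp. The Thbs4 spread includes signals below 50. Among the members themselves Matn1 and Matn3 were the closest pair at 0.32, and Comp and Thbs4 the farthest apart at 2.60.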
